A study of Mus musculus with 8 samples.

Results

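The activity-dependent immediate early genes, the first genes that neurons transcribe after stimulation, were examined in the cortex of Nova2 knockout (Nova2 KO) and wild type mice. Of 35 listed genes, 22 had probe sets in the deposited table that named them alone. The other 13, Fos, Fosb, Npas4, Atf3, Nfil3, Crem, Dusp5, Ier2, Btg2, Gadd45b, Gadd45g, Nptx2 and Inhba, were not analysed here. The 22 genes were covered by 275 probe sets, of which 251 lay above the filter on dim signal, and all 22 kept enough of them to be tested among 11992 genes. A gene value was the median log2 signal over the kept probe sets of a gene on 1 array. The genes were taken by name from a list of known immediate early genes, and earlier results of these data were known when it was drawn up.

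Nova2 KO mice, which lack the neuronal splicing regulator Nova2, were set against wild type mice, with 4 animals in each group and 1 exon array of total cortical RNA per animal. All were CD1 mice aged 10 days after birth. The deleted part of Nova2, and whether it was removed in all cells, are not given in the sources used here. As a check of the labels, Nova2 probe set 5294108 read 6.28, 7.17, 7.26 and 6.73 log2 on the Nova2 KO arrays, against 8.87, 8.65, 8.53 and 8.66 log2 on the wild type arrays. Another Nova2 probe set, 4414499, was higher on every Nova2 KO array (0.70 log2), the rest differed by less, and the Nova2 gene value differed by -0.016 log2 (SE 0.11, limma adjusted p = 0.975). A probe set outside the deleted part checks nothing. Array medians ran from 7.06 to 7.37 log2 in Nova2 KO and from 7.02 to 7.37 log2 in wild type. The arrays numbered 4 had the lowest median and the largest share of values at the floor of 4 log2 in both groups, 2.20% in Nova2 KO and 3.34% in wild type. Markers of cortical excitatory neurons, as defined by a list with 10 tested genes, averaged 9.14 to 9.38 log2 over the Nova2 KO arrays and 9.10 to 9.29 log2 over the wild type arrays.

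When a neuron is excited, calcium entry and kinase signalling act on transcription factors that are already present, chiefly CREB at cAMP response elements (CRE) and SRF at CArG boxes. The immediate early genes respond without new protein synthesis. Many encode transcription factors of a further round of expression, some encode inhibitors that end the signal, and some act at the synapse. In the cortex their basal level follows ongoing activity and handling of the animal.

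The promoters of 3 genes with a low Nova2 KO mean, Egr4, Nr4a1 and Junb, are shown with that of Jun, whose Nova2 KO mean was the higher one. Each run is the 250 bases before the start of transcription, 5′ to 3′ on the transcribed strand, from RefSeq on build GRCm38.p6. Capitals mark the CRE core TGACG on either strand.
Egr4, chr6:85513590-85513839, strand -: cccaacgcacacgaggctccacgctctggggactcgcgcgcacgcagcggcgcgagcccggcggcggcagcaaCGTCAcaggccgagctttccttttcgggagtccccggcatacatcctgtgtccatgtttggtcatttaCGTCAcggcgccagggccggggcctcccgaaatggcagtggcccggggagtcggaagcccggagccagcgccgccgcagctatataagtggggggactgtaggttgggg
Nr4a1, chr15:101266596-101266845, strand +: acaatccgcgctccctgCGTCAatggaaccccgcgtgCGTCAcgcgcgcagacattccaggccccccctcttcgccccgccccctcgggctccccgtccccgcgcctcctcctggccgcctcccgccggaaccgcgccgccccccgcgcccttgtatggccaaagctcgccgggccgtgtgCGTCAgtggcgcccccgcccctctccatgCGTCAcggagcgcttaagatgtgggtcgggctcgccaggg
Junb, chr8:84978749-84978998, strand -: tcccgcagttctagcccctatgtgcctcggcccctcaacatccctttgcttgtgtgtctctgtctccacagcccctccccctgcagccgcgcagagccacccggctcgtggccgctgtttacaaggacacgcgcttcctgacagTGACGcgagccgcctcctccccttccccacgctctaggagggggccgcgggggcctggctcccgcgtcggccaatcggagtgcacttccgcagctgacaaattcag
Jun, chr4:95052223-95052472, strand -: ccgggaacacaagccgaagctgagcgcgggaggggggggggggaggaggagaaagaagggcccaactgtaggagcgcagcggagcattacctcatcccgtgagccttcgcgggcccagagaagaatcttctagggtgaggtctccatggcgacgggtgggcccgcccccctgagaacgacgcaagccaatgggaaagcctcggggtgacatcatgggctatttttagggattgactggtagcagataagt
The Nr4a1 window held 4 cores, the Egr4 window 2 and the Junb window 1, while these letters did not occur in the Jun window. Among the other genes with an entry, the core was absent for Ier5, Jund and Fosl2, whose Nova2 KO means were lower. It was present for Dusp1 (3 matches, 2 of them 1 full CRE read on both strands) and Per1, whose Nova2 KO means were higher. None of these genes had an unadjusted p under 0.05 (limma), and a link between the core and the difference was not tested. RefSeq promoters were found for 15 of the 22 tested genes, with 26 entries in all. Arc, Egr1, Egr3, Dusp4, Sik1, Trib1 and Vgf had no entry and were not searched. The core, searched on both strands, was present in 13 of these 26 entries (50%), in 10 of the 15 genes, and in 17.8% of 32851 promoter windows of the same length. The full CRE TGACGTCA, which contains the core, was found for Dusp1 and Scg2 and in 1.55% of all windows. The EGR site GCGGGGGCG was found for Nr4a1 and Fosl2 (2.57% of all windows), the AP-1 site TGANTCA for 1 entry of Bdnf (6.75%), and the CArG box in 4 of 5 entries of Egr2 (1.47%). Entries of 1 gene can overlap and count the same letters again, as the evenly shifted distances of the Egr2 matches show. The share of genes with a match was not counted over all genes. A match describes the letters only, and binding was not measured.

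None of the 22 genes passed the threshold of an adjusted p of 0.05 (limma), which 0.117% of all genes passed as lower and 0.0917% as higher in Nova2 KO (0.208% in all). At an unadjusted p under 0.05, 6 of the 22 were lower in Nova2 KO (Arc, Egr4, Egr1, Nr4a1, Egr3 and Junb) and 0 higher, against 3.72% lower and 7.86% higher among all genes. The count of lower genes was 3 when Nova2 KO 2, wild type 1 or wild type 2 was left out and the filter applied anew. For Arc and Egr4 all Nova2 KO values lay below all wild type values, an ordering found in 2.5% of all genes, and 0 of the 22 had the reverse ordering, found in 5.06%. The difference was below 0 for 14 of the 22 (63.6%) and for 44.6% of all genes. The median difference was -0.075 log2 over the 22 genes and 0.022 log2 over all genes. Because these genes were looked at again with earlier results known, no test of the list as a whole is given. In bulk cortex, fewer cells of a type and less RNA per cell cannot be told apart.

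**Figure D1:**
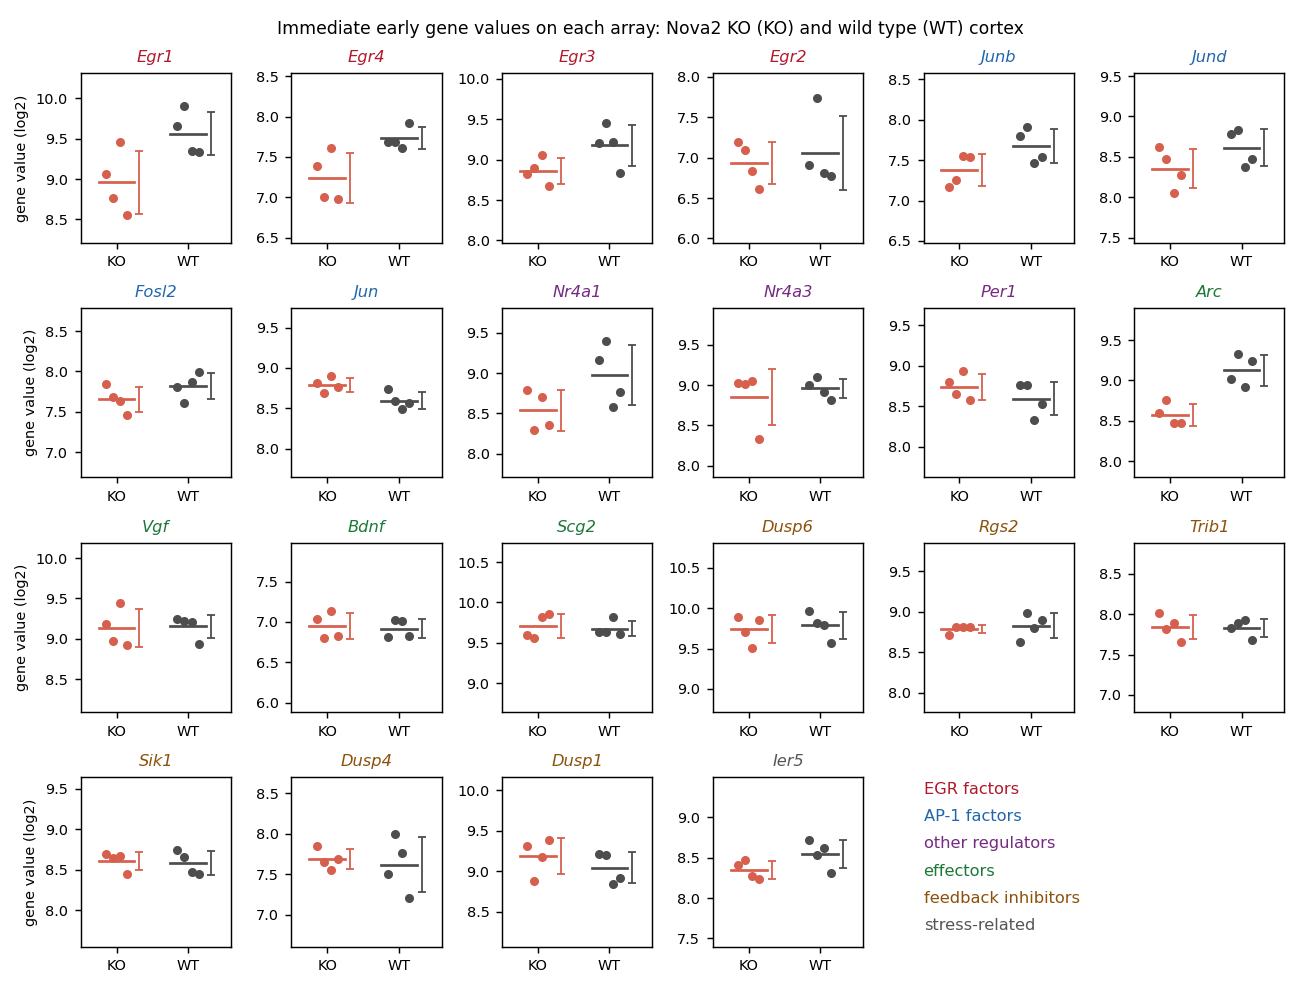
Gene value in log2 (vertical axis, every panel spanning the same width) of the 22 immediate early genes on each array, Nova2 KO (KO, left) and wild type (WT, right). Points are arrays, lines means and bars ± SD (n = 4 per group). The groups are apart for Arc and, barely, for Egr4, and overlap for the other genes.

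The EGR genes encode zinc finger transcription factors that bind GC-rich sites. Egr1, which is linked to synaptic plasticity and memory, read 9.06, 8.76, 9.46 and 8.56 log2 in Nova2 KO, against 9.66, 9.90, 9.35 and 9.34 log2 in wild type. Only Nova2 KO 3 reached into the range of wild type. Egr1 averaged 8.96 ± 0.39 log2 in Nova2 KO and 9.56 ± 0.27 log2 in wild type (SD, n = 4 each), a difference of -0.60 log2 (SE 0.19, limma adjusted p = 0.266). Without the filter on dim probe sets the median over all 18 probe sets of Egr1 gave a difference of -0.031 log2 (limma adjusted p = 0.969).

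Egr4, a family member of the nervous system, read 7.38, 6.998, 7.61 and 6.98 log2 in Nova2 KO, against 7.69, 7.69, 7.61 and 7.92 log2 in wild type. The groups did not overlap, but the highest Nova2 KO value, 7.609 log2, and the lowest wild type value, 7.614 log2, were almost equal. The difference was -0.49 log2 (SE 0.14, limma adjusted p = 0.261), and -0.16 log2 with the filter at the 50th percentile. Egr3, which acts downstream of neurotrophin signalling, read 8.82, 8.90, 9.05 and 8.67 log2 in Nova2 KO, against 9.20, 9.46, 9.22 and 8.84 log2 in wild type. Here the groups overlapped through wild type 4. The Egr3 difference was -0.32 log2 (SE 0.13, limma adjusted p = 0.387), with 3 probe sets, all lower in Nova2 KO.

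Egr2, best known from myelinating Schwann cells and the hindbrain, read 6.62 to 7.19 log2 in Nova2 KO and 6.77 to 7.74 log2 in wild type. It differed by -0.13 log2 (SE 0.20, limma adjusted p = 0.852). The wild type mean rested on wild type 2, at 7.74 log2 against 6.77 to 6.91 log2 for the others. Without that array the difference was 0.10 log2.

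Arc is a synaptic protein that promotes removal of AMPA receptors from the membrane, and its mRNA travels to active dendrites. It read 8.60, 8.75, 8.47 and 8.47 log2 in Nova2 KO, against 9.01, 9.32, 8.92 and 9.24 log2 in wild type. Arc had the lowest p of the 22 genes. It averaged 8.57 ± 0.13 log2 in Nova2 KO and 9.12 ± 0.19 log2 in wild type (SD, n = 4 each), a difference of -0.55 log2 (SE 0.12, 95% interval -0.80 to -0.30, limma adjusted p = 0.123), or 0.683 of the wild type signal. The difference lay between -0.62 and -0.48 log2 in the 19 other settings tried, with adjusted p from 0.0342 to 0.363. Arc passed in 1 of them, the fit with a replicate block, and whether the numbers pair the mice is not known.

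The other effectors lay near 0. Bdnf, the neurotrophin of activity-dependent synapse growth, read 6.81 to 7.13 log2 in Nova2 KO and 6.81 to 7.02 log2 in wild type. Its difference was 0.031 log2 (95% interval -0.20 to 0.27). The granule proteins Vgf and Scg2, precursors of secreted neuropeptides, differed by -0.021 log2 (95% interval -0.30 to 0.26) and by 0.034 log2 (95% interval -0.19 to 0.26). All 3 had an unadjusted p far above 0.05, and their intervals still allow changes of about the size of the smaller EGR differences.

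The AP-1 factors pair as dimers of Jun and Fos family proteins, and their 4 tested genes did not lie on one side. Junb, which often opposes Jun at AP-1 sites, read 7.16, 7.25, 7.55 and 7.54 log2 in Nova2 KO, against 7.79, 7.92, 7.47 and 7.54 log2 in wild type. The groups overlapped, and the difference was -0.30 log2 (SE 0.13, limma adjusted p = 0.399). It was -0.20 log2 without Nova2 KO 3 and -0.17 log2 without the filter. Each omission of an array also applied the filter anew, so the kept probe sets could change. Nova2 KO 3 held the highest Nova2 KO value of Junb, so its loss alone would not bring the difference nearer 0. Jund, known as the least inducible Jun protein, differed by -0.26 log2 (SE 0.14, limma adjusted p = 0.508). The Jund difference was -0.042 log2 without wild type 1, -0.058 log2 without Nova2 KO 4 and -0.16 log2 without Nova2 KO 3. Such values join the loss of an array with any change in the kept probe sets, and do not show the weight of 1 mouse alone. Fosl2, a Fos family partner, differed by -0.17 log2 (SE 0.12, limma adjusted p = 0.621), by -0.10 log2 without Nova2 KO 4, by -0.11 log2 without wild type 4 and by -0.042 log2 without both.

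Jun ran the other way. It read 8.69 to 8.90 log2 in Nova2 KO and 8.49 to 8.73 log2 in wild type, where 1 wild type array reached into the range of Nova2 KO. The Jun difference was 0.20 log2 (SE 0.097, limma adjusted p = 0.457), and 0.062 log2 with the filter at the 50th percentile. Without Nova2 KO 3 it was 0.083 log2, a value that joins the loss of this array with any change in the kept probe sets.

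Nr4a1 and Nr4a3 encode orphan nuclear receptors that are induced by depolarisation. Nr4a1 read 8.79, 8.29, 8.70 and 8.36 log2 in Nova2 KO, against 9.16, 9.40, 8.58 and 8.77 log2 in wild type. The highest values were those of wild type 1 and 2, and wild type 3 and 4 lay within the range of the Nova2 KO arrays. The Nr4a1 difference was -0.44 log2 (SE 0.18, limma adjusted p = 0.364). Nr4a3 differed by -0.10 log2 (SE 0.15, limma adjusted p = 0.838), and by 0.070 log2 without Nova2 KO 4, at 8.34 log2 against 9.01 to 9.05 log2 for the other Nova2 KO arrays. Per1, a repressor of the circadian clock that is also induced through CREB, read 8.58 to 8.93 log2 in Nova2 KO and 8.33 to 8.76 log2 in wild type. Its difference was 0.14 log2 (SE 0.12, limma adjusted p = 0.688), 0.058 log2 without wild type 3, 0.080 log2 without Nova2 KO 3 and 0.073 log2 with the filter at the 50th percentile.

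The inhibitors that end the signal lay on both sides of 0. Over 6 tested genes the median difference was 0.021 log2, with values from -0.046 log2 (Dusp6, a cytoplasmic phosphatase of ERK) to 0.14 log2 (Dusp1, a nuclear phosphatase of MAP kinases). Dusp1 moved to 0.24 log2 without Nova2 KO 2, 0.074 log2 without Nova2 KO 4, 0.073 log2 without wild type 3, 0.031 log2 without both arrays numbered 4 and 0.26 log2 with the mean over its probe sets. Dusp4, a further nuclear phosphatase, differed by 0.066 log2 (95% interval -0.27 to 0.40). Sik1, a kinase that keeps CREB coactivators out of the nucleus, differed by 0.033 log2 (95% interval -0.20 to 0.26). Trib1, a pseudokinase that steers protein degradation, differed by 0.010 log2, and Rgs2, which shortens Gq signalling, by -0.041 log2. Ier5, the 1 tested gene among the growth arrest and stress-related regulators, read 8.23 to 8.47 log2 in Nova2 KO and 8.31 to 8.72 log2 in wild type. It differed by -0.20 log2 (SE 0.11, limma adjusted p = 0.508), and by -0.32 log2 with the mean over its probe sets.

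**Figure D2:**
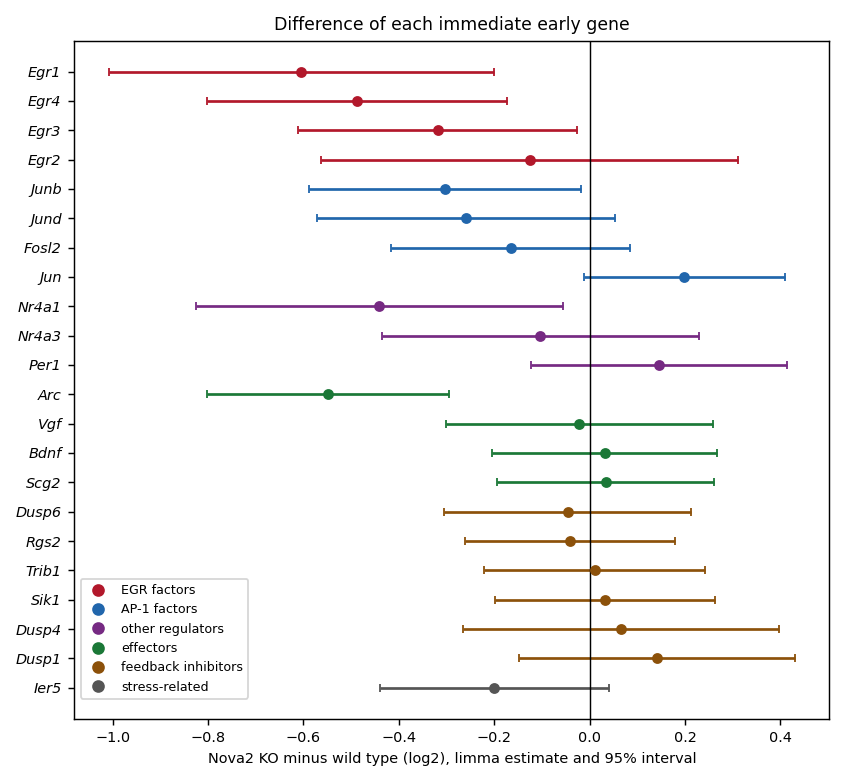
Difference of each gene value, Nova2 KO minus wild type in log2 (horizontal axis), with the 95% interval of limma, grouped by role. The intervals of Egr1, Egr4, Egr3, Junb, Nr4a1 and Arc lie below 0 before adjustment, those of the feedback inhibitors span 0, and none of the 22 genes passed after adjustment.

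Array by array, the genes with the lowest p shared some of their extreme arrays. Wild type 2 was the highest wild type array for Arc, Egr1, Egr3, Nr4a1 and Junb, and Nova2 KO 4 was the lowest Nova2 KO array for Arc, Egr1, Egr3 and Egr4. For Arc, Nova2 KO 3 was almost equal to it (8.472 against 8.470 log2), as was Nova2 KO 2 for Egr4 (6.998 against 6.976 log2). Junb was lowest on Nova2 KO 1 and Nr4a1 on Nova2 KO 2. Over the 22 genes, Nova2 KO 4 was the lowest array of its group for 12 and Nova2 KO 3 the highest for 9. In wild type, wild type 2 was the highest array for 12 and wild type 4 the lowest for 11. The mean over the 22 genes was 8.49, 8.36, 8.48 and 8.29 log2 in Nova2 KO, against 8.58, 8.70, 8.46 and 8.42 log2 in wild type. These means overlapped between the groups. Averaged over all genes tested, Nova2 KO 4 and wild type 4 were the low arrays too, with mean deviations of -0.059 and -0.10 log2. The median SD of the immediate early genes was 0.16 log2 in Nova2 KO and 0.17 log2 in wild type, against 0.16 and 0.15 log2 over all genes. Single genes ran from 0.047 (Rgs2) to 0.39 log2 (Egr1) in Nova2 KO and from 0.097 (Scg2) to 0.46 log2 (Egr2) in wild type. Egr1 and Nr4a1 lay above the medians in both groups.

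**Figure D3:**
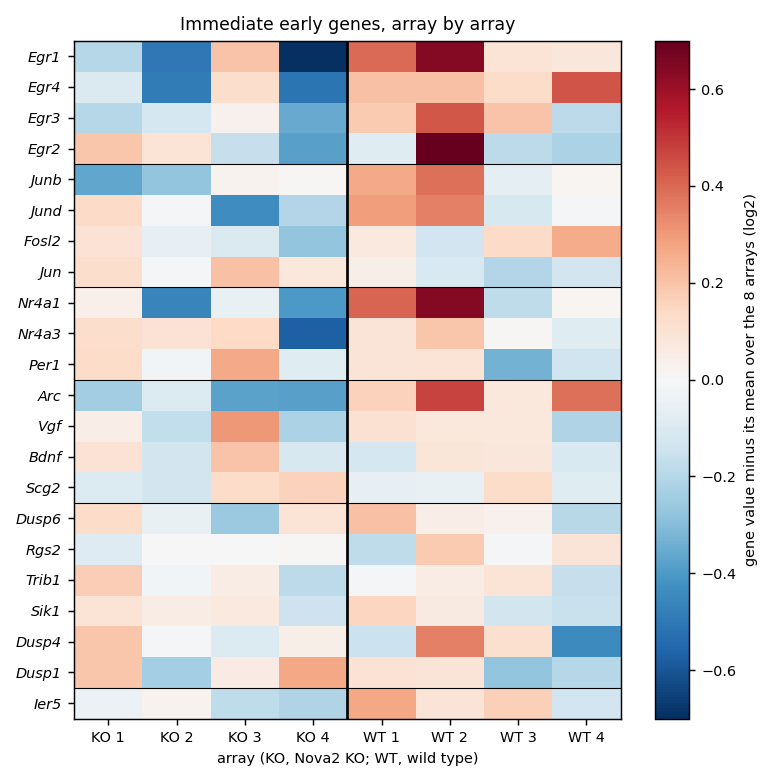
Gene value minus its mean over the 8 arrays, in log2 (colour), for 22 immediate early genes (rows, grouped by role) on the Nova2 KO arrays (KO, left of the line) and the wild type arrays (WT, right). Arc and Egr4 are low on the Nova2 KO side, except Egr4 on Nova2 KO 3, and Egr1, Egr2 and Nr4a1 are highest on wild type 2.

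An exon array reads a gene through several probe sets, so the single probe sets show whether they share a difference. Their positions along the transcript are not given in the sources used here. Of the 251 tested probe sets of these genes none passed (limma adjusted p under 0.05, passed by 0.00681% of all tested probe sets). At an unadjusted p under 0.05, 30 were lower and 10 higher in Nova2 KO, against 2.78% lower and 3.9% higher among all. The difference was below 0 for 144 of the 251 (48.9% of all), all Nova2 KO values lay below all wild type values for 17 (2.04% of all) and above them for 5 (3.05% of all). Probe sets of 1 gene read the same RNA and are not independent. All tested probe sets of Arc (5), Egr2 (7), Egr3 (3), Egr4 (13) and Ier5 (7) were lower in Nova2 KO, with 12 of 13 for Nr4a1, and all 6 of Dusp1 were higher.

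Egr1 was split by brightness. Of its 11 probe sets above the median signal of the series, 9 differed by -0.67 to -0.47 log2 and the other 2 by 0.13 and 0.35 log2. Its 7 dimmer ones ran from -0.29 to 0.53 log2. The brightest, 4412277, read 10.64, 10.43, 11.04 and 10.35 log2 in Nova2 KO, against 11.24, 11.39, 11.16 and 11.36 log2 in wild type, without overlap (-0.67 log2, SE 0.17, limma adjusted p = 0.563).

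In Egr4 and Egr2 the brightest probe sets lay near 0. The top 4 of Egr4 by signal differed by -0.14 to -0.027 log2, while the rest ran from -0.066 down to -0.70 log2. The 2 brightest of Egr2, at 10.01 and 9.29 log2, differed by -0.012 and -0.013 log2, and its others, 1 of them below the filter, by -0.59 to -0.15 log2. In Arc, 3 probe sets differed by -0.89, -0.79 and -0.68 log2 without overlap between the groups, and 5518611 by -0.13 log2.

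Junb held the probe set with the lowest p among these genes. Probe set 5496373 read 7.90, 7.61, 7.78 and 7.54 log2 in Nova2 KO, against 8.46, 8.54, 8.31 and 8.33 log2 in wild type (-0.70 log2, SE 0.13, limma adjusted p = 0.335). The other tested probe sets of Junb differed by -0.40 to 0.069 log2. Among those higher in Nova2 KO, 1 of Vgf (5471091, 0.70 log2, SE 0.18, adjusted p = 0.568) and 1 of Bdnf (5340436, 0.57 log2, SE 0.14, adjusted p = 0.571) had groups that did not overlap, although neither gene value differed by more than 0.04 log2. The brightest probe set of Bdnf, 4332246, ran the other way without overlap (-0.29 log2, SE 0.12, adjusted p = 0.735).

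**Figure D4:**
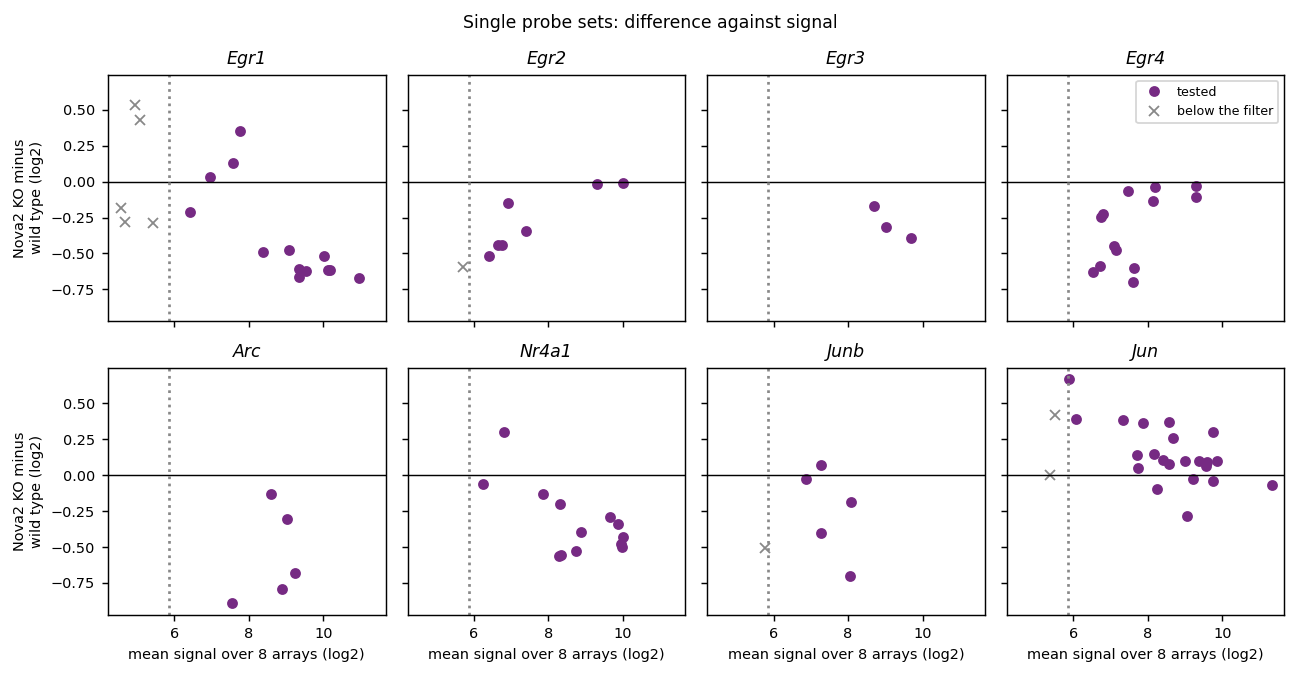
Difference of single probe sets, Nova2 KO minus wild type in log2 (vertical axis), against their mean signal over 8 arrays in log2 (horizontal axis), for 8 genes. Circles were tested, crosses lay below the filter (dotted line, 5.86 log2). Most bright probe sets of Egr1 lie near -0.6 log2, whereas the brightest ones of Egr2 and Egr4 lie near 0.

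Since Nova2 regulates splicing, exon usage was examined as the signal of a probe set minus its gene value on the same array, an index that rises when an exon gains signal relative to its gene. Over 20 of these genes with 244 probe sets none passed (limma adjusted p under 0.05, passed by 0.0133% of all), and 20 (8.2%) had an unadjusted p under 0.05, against 6.76% of all. The lowest p was that of Jun probe set 5612930, with an index of 0.30, 0.14, 0.033 and -0.0059 log2 in Nova2 KO, against 0.58, 0.57, 0.70 and 0.55 log2 in wild type (difference -0.48 log2, SE 0.096, adjusted p = 0.461). Jun has no intron, so this index cannot stand for an alternative exon there. Next came Sik1 probe set 5140896 (-0.38 log2, SE 0.088, adjusted p = 0.551), whose signal averaged 7.84 ± 0.17 log2 in Nova2 KO and 8.18 ± 0.16 log2 in wild type (SD, n = 4 each).

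Other activity-regulated genes, from a second list, lay on both sides of 0. Of 50 listed genes 34 were tested and 0 passed in limma, while 4 were higher and 3 lower before adjustment at the same threshold. Of the 34, 17 were above and 17 below 0, and the median difference was 0.016 log2. Those with the lowest p were Sertad1, a cell cycle regulator (-0.53 log2, SE 0.11, limma adjusted p = 0.123), the opioid peptide gene Penk (-0.47 log2, SE 0.12, adjusted p = 0.223), the substance P gene Tac1 (0.51 log2, SE 0.14, adjusted p = 0.236) and the neurite growth gene Nrn1 (-0.35 log2, SE 0.11, adjusted p = 0.263).

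Of 35 genes that carry activity to the nucleus, 33 were tested and 1 passed. Rasgrf1, a calcium-responsive activator of Ras upstream of ERK, fell to 9.07 ± 0.18 log2 in Nova2 KO, against 9.73 ± 0.10 log2 in wild type (SD, n = 4 each; -0.66 log2, SE 0.11, limma adjusted p = 0.0374). In 9 of the 19 other settings Rasgrf1 was not past the threshold, with differences of -0.74 to -0.58 log2 and adjusted p from 0.0142 to 0.147. These 9 were median centring, the omission of both arrays numbered 4, and the omission of any single array other than Nova2 KO 3. Its neighbours by p were Mapk3, the kinase ERK1 (0.37 log2, SE 0.11, adjusted p = 0.251), the activity-responsive factor Mef2c (0.37 log2, SE 0.11, adjusted p = 0.263) and the kinase gene Camk2a (-0.35 log2, SE 0.11, adjusted p = 0.266). Over the 33 genes, 23 were below 0 and the median difference was -0.060 log2.

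Lists tied to handling and to other cells are given beside these values. The mean of 5 heat shock genes was 10.37 to 10.40 log2 in Nova2 KO and 10.27 to 10.31 log2 in wild type, without overlap. None of the 5 passed, and 0 had an unadjusted p under 0.05. The largest differences were those of the chaperone regulator Bag3 (0.22 log2, SE 0.11, limma adjusted p = 0.461) and the chaperone Hsp90aa1 (0.20 log2, SE 0.10, adjusted p = 0.466). Of 9 tested glucocorticoid-responsive genes 0 passed and 1 was higher at an unadjusted p under 0.05, the metallothionein gene Mt2 (0.50 log2, SE 0.17, adjusted p = 0.284), and their median difference was 0.084 log2. The median over 13 clock genes was -0.11 log2, with 0 at an unadjusted p under 0.05. Of 12 tested oligodendrocyte and myelin genes 11 were below 0, of which the myelin genes Mal (-1.03 log2) and Mog (-0.77 log2) passed, with adjusted p of 0.0251 and 0.0301 in limma. They were not past the threshold in 10 and 11 of the 19 other settings, and over all 19 Mal differed by -1.19 to -0.56 log2 and Mog by -0.84 to -0.67 log2. Single arrays whose omission lost the call of Mal were Nova2 KO 2, 3 and 4 and wild type 1, 3 and 4, and for Mog all except wild type 2. Their list mean was 8.76 to 8.99 log2 in Nova2 KO and 9.16 to 9.29 log2 in wild type. All 9 vessel genes were below 0, with a list mean of 7.71 to 7.91 log2 in Nova2 KO and 7.93 to 8.05 log2 in wild type, and 0 of them passed, with 3 at an unadjusted p under 0.05. The list means of astrocytes, microglia, inhibitory neurons, cortical excitatory neurons, blood cells, meninges with choroid plexus, and hippocampus with striatum overlapped between the groups, as did those of clock and hypoxia genes. Within these lists single genes differed, none past the threshold. Lower in Nova2 KO without overlap were Wfs1 of hippocampus and striatum (-0.45 log2, adjusted p = 0.185) and the collagen gene Col1a2 of the meninges (-0.41 log2, adjusted p = 0.283). Higher in Nova2 KO without overlap were the deep-layer neuron genes Foxp2 (0.33 log2, adjusted p = 0.265) and Fezf2 (0.29 log2, adjusted p = 0.293) and the interneuron gene Dlx1 (0.29 log2, adjusted p = 0.284). So were the hypoxia gene Ndrg1 (0.29 log2, adjusted p = 0.283) and Dcn of the meninges (0.13 log2, adjusted p = 0.624). With groups that overlapped, the red cell genes Alas2 (-0.72 log2, adjusted p = 0.283) and Slc4a1 (-0.38 log2, adjusted p = 0.306) were lower. So was the microglial gene P2ry12 (-0.29 log2, adjusted p = 0.343), while the excitatory neuron gene Neurod6 was higher (0.29 log2, adjusted p = 0.411). The part of any of these in the values of Arc and the EGR genes was not tested.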

How the data were processed

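RNA of 8 cortices was measured on Affymetrix exon arrays, and the deposited values are log2 signals made by the authors with PLIER, per the submitters' processing notes (version not given). Neither background correction, nor normalization between arrays, nor a build is stated there. Values were used as deposited, with arrays grouped by title. Of 391597 probe sets, 228454 named 1 gene, 3443 several and 159700 none, with symbols updated through the RefSeq table of GRCm38.p6. Probe sets above the 25th percentile of the mean over 8 arrays (5.86 log2) were kept, and genes with 3 or more were tested. Exon usage needed 5 or more.

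Differences were fitted as Nova2 KO minus wild type over all genes or probe sets with lmFit and eBayes of limma 3.58.1 in R 4.3.3 (data.table version 1.17.8), two-sided, with Benjamini-Hochberg adjustment at 0.05 and no replicate block. The script was tested on simulated data. Plots used Python 3.11.15 and matplotlib 3.10.9. Precision is limited by the number of arrays, which carry no read counts. The members and lists were chosen with earlier results of these data known. Values on every array are printed for genes with an unadjusted p under 0.05 or groups that do not overlap, and other lists name up to 4 genes with the lowest p and any that passed. Alternatives were other filters, summaries, scalings, covariates and left-out arrays. Where arrays were left out, the filter on dim signal was applied anew to the rest, so the kept probe sets of a gene could change.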

Additional observations from a re-analysis of the deposited data

Results flagged for a closer look

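In 5 of 44 combinations of gene and group, 1 array stood apart from the other 3 by Dixon's ratio, and chance alone gives such a gap in about 1 of 20 groups. In Nova2 KO, Nr4a3 was at 8.34 log2 on array 4 (others 9.01 to 9.05), and Rgs2 at 8.72 log2 on array 1 (others 8.81 to 8.82). In wild type, Egr2 was at 7.74 log2 on array 2 (others 6.77 to 6.91), Scg2 at 9.82 log2 on array 3 (others 9.61 to 9.64) and Vgf at 8.93 log2 on array 4 (others 9.21 to 9.25).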

How the results depend on the processing

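In the 19 other settings tried, the number of these genes past the threshold stayed at 0 except with a replicate block taken from the numbers in the titles, where it was 1, Arc (limma adjusted p = 0.0342). Same-numbered arrays deviated together by r = 0.14, 0.33, 0.024 and 0.57 over genes. The other pairs of a Nova2 KO and a wild type array ran from r = -0.46 to 0.28. These values do not settle whether the number pairs the mice or marks a shared batch. The median over these genes stayed below 0, from -0.13 log2 without Nova2 KO 1 to -0.019 log2 without wild type 2. Over all genes the count of 25 was 13 with median centring, 54 with the array median as a covariate, 80 with the replicate block, 12 without both arrays numbered 4 and 6 to 16 without single arrays. At probe-set level and in exon usage 0 passed in each of the 12 settings run.

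The sign of 12 genes, among them Arc, Egr1, Egr3, Egr4, Nr4a1, Junb and Jun, held in each setting. It turned for 10 genes whose main values lay within 0.13 log2 of 0, and the cause was not tested. With the filter at the 50th percentile, Bdnf was at -0.055, Dusp4 at -0.045, Rgs2 at 0.098 and Trib1 at -0.036 log2. With gene values averaged instead of taken as the median, Nr4a3 was at 0.022, Rgs2 at 0.060, Trib1 at -0.026 and Vgf at 0.040 log2. Without the filter Nr4a3 was at 0.082 log2. Without both arrays numbered 4, Dusp4 was at -0.074, Nr4a3 at 0.084, Scg2 at -0.037 and Trib1 at -0.045 log2. Here and in the values that follow, the filter was applied anew to the remaining arrays. A changed set of kept probe sets can thus add to the effect of the arrays left out. Leaving out single arrays gave -0.030 to 0.14 log2 for Bdnf, -0.071 to 0.19 for Dusp4, -0.12 to 0.032 for Dusp6, -0.22 to 0.10 for Egr2, -0.17 to 0.070 for Nr4a3, -0.11 to 0.013 for Rgs2, -0.015 to 0.083 for Scg2, -0.013 to 0.089 for Sik1, -0.090 to 0.074 for Trib1 and -0.13 to 0.048 log2 for Vgf.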
